A study of Rattus norvegicus with 4 samples.

Results

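Transcripts of 7 genes of the unfolded protein response and the amino acid stress response were compared between the livers of rats given α-naphthylisothiocyanate (ANIT), a liver toxicant used as a model of intrahepatic cholestasis, and the livers of control rats. The genes were taken by exact symbol, and each was represented by 1 feature. They made up 7 of the 1936 features on the array and 7 of the 958 genes that features with a single symbol stood for. The set was chosen with earlier results of these data known. Shares over all features given below therefore describe the set and are not a test of it. Xbp1, Dnajb9, Creld2 and Calr were treated as the XBP1 and ATF6 branch and Asns, Trib3 and Ddit3 as the ATF4 branch. Male Sprague-Dawley rats had received 75 mg/kg ANIT in olive oil by intraperitoneal injection, controls had received olive oil alone, and the right lateral lobe of the liver was taken after 24 h. RNA of the 3 rats of a condition was mixed, which left 1 pool per condition. The pools were labelled with different dyes and shared each of 4 spotted cDNA arrays. Cy5 marked the ANIT pool on arrays 1 and 3, called Cy5 arrays below, and Cy3 marked it on arrays 2 and 4, called Cy3 arrays.

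The arrays are read from the labels as repeats of 1 pair of pools, and such repeats say nothing of the spread between animals. No p-value is therefore given, and each SD (n = 4 hybridisations) measures hybridisation error together with any difference between the dyes. Values are log2 ratios of the ANIT pool over the olive oil pool. That direction follows the order of the channels in the labels and is likely, not stated; the other direction would turn every sign below. The deposited ratios held a dye effect: the medians of the Cy5 arrays were -0.68 and -0.64, those of the Cy3 arrays 0.31 and 0.35, and the median of the feature means was -0.25. Centring each array on its median raises every mean by 0.17. Spot intensities were not analysed here, so levels of defining liver or cell type markers could not be checked. In a pool of whole liver, fewer cells of a type and less RNA per cell cannot be told apart.

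The unfolded protein response is set off when unfolded proteins gather in the endoplasmic reticulum (ER). The sensor IRE1 splices Xbp1 mRNA, ATF6 is cut and moves to the nucleus, and both routes raise chaperones and folding enzymes of the ER. The kinase PERK phosphorylates the translation factor eIF2α, which lowers protein synthesis and favours translation of the transcription factor ATF4. The kinase GCN2 does the same when amino acids run short, so ATF4 targets answer to both kinds of stress. Hepatocytes secrete large amounts of plasma protein and depend on these routes.

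Among the 7 genes, Creld2, Asns, Trib3 and Xbp1 had mean log2 ratios from 0.41 to 0.68, and Dnajb9, Calr and Ddit3 lay together between -0.16 and -0.14. The division between higher and lower genes therefore ran through both branches. The size rule asked for a mean of at least 2-fold and 1 sign throughout the arrays. None of the 7 genes met it, while 0.775% of all features did on the higher side and 3.05% on the lower side. At 1.5-fold, Creld2 and Asns were higher by the same rule, against 2.48% of all features, and none of the 7 was lower, against 6.92%. On the Cy5 arrays alone none of the 7 was higher by 1.5-fold, against 4.03% of all features, and on the Cy3 arrays alone Creld2, Asns and Trib3 were, against 21.2%. By sign alone, 3 of the 7 genes (Creld2, Asns and Xbp1) were above 0 on all 4 arrays, against 11.9% of all features, and 2 (Dnajb9 and Calr) were below 0 on all 4, against 17.6%.

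**Figure D1:**
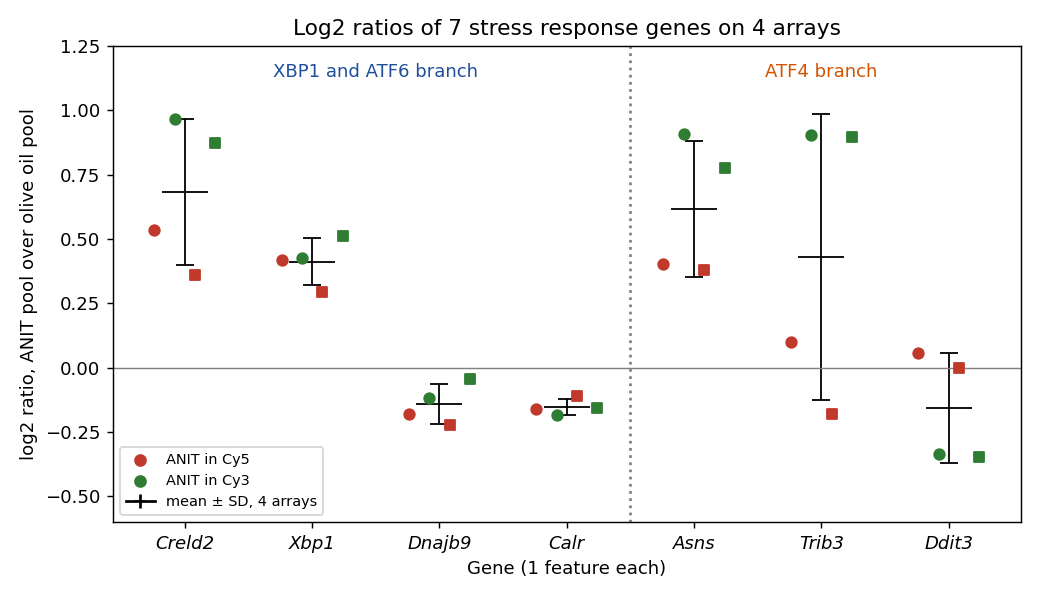
Log2 ratio of the ANIT pool over the olive oil pool (vertical axis) for each of the 7 genes (horizontal axis), with 1 point per array coloured by the dye of the ANIT pool and bars for the mean ± SD of 4 arrays. Creld2, Xbp1 and Asns lie above 0 on all arrays, Dnajb9 and Calr below 0 on all arrays, and Trib3 and Ddit3 have values on both sides of 0.

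Creld2, a secretory protein of the ER that is induced by ER stress, had the highest ratio of the 7 genes. Its log2 ratios were 0.54 and 0.36 on the Cy5 arrays and 0.96 and 0.87 on the Cy3 arrays, all above 0, with the Cy3 arrays the higher. The mean was 0.68 ± 0.28, or 1.61-fold, above 98.2% of all features. Within single arrays Creld2 stood above 93.1% to 98.9% of features, so its place near the top did not depend on the level of the array. Centred, its mean was 0.85, and its values were higher on the Cy5 arrays (1.21 and 1.00) than on the Cy3 arrays (0.65 and 0.53).

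Xbp1, the transcription factor spliced by IRE1, had log2 ratios of 0.42, 0.42, 0.29 and 0.51 on arrays 1 to 4, with the Cy3 arrays higher by a small amount (orientation means of 0.36 and 0.47). The mean was 0.41 ± 0.09, or 1.33-fold, above 92.9% of all features. Its place within an array differed more than its ratio: Xbp1 stood above 91.8% and 91.6% of features on the Cy5 arrays, and above 60.8% and 68.4% on the Cy3 arrays, where most features had ratios above 0. Centred values were again all above 0, but split by dye, at 1.10 and 0.94 on the Cy5 arrays and 0.11 and 0.17 on the Cy3 arrays. A ratio of total Xbp1 transcript does not tell the spliced from the unspliced form.

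Dnajb9, an ER co-chaperone that helps dispose of misfolded proteins and is a known XBP1 target, had log2 ratios of -0.18, -0.12, -0.22 and -0.04. The mean was -0.14 ± 0.08, or 1.10-fold lower. Calr, the calcium-binding lectin chaperone calreticulin, had -0.16, -0.19, -0.11 and -0.16, the tightest values of the 7 genes, with a mean of -0.15 ± 0.03 or 1.11-fold lower. Both genes were below 0 on all 4 arrays as deposited, but both means were above the median feature and turned positive with centred arrays, to 0.02 for Dnajb9 and 0.01 for Calr. Centred values of both were above 0 on both Cy5 arrays and below 0 on both Cy3 arrays. As deposited, the means of the Cy5 and Cy3 arrays differed less (-0.20 and -0.08 for Dnajb9, -0.14 and -0.17 for Calr). The split in sign thus arose with the centring. The deposited values of Dnajb9 already did not overlap between the dyes, with the Cy3 arrays the higher, whereas those of Calr did. No direction is drawn for either gene.

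**Figure D2:**
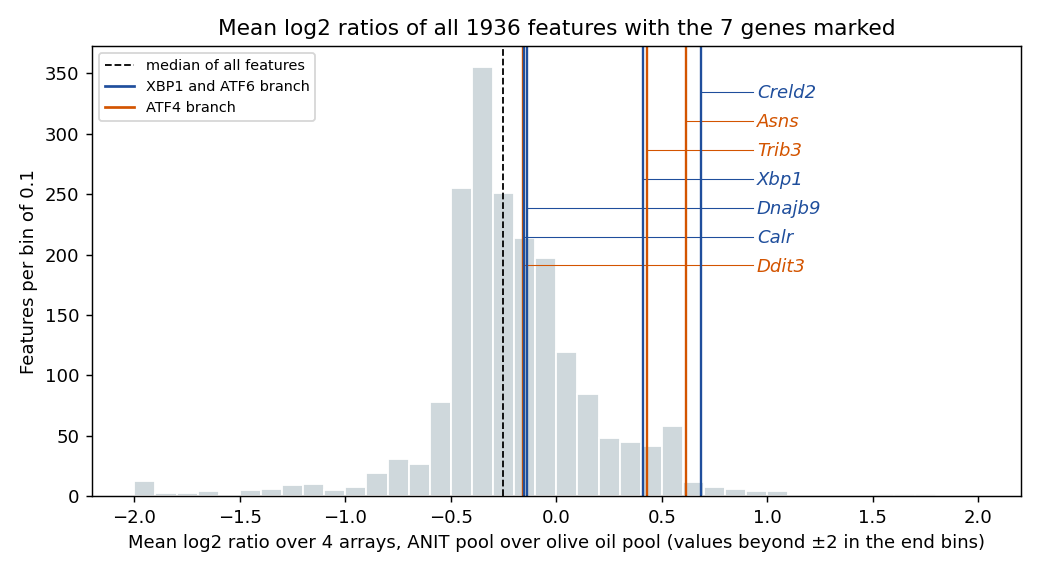
Number of features (vertical axis) by mean log2 ratio over 4 arrays in bins of 0.1 (horizontal axis), with the 7 genes marked as lines coloured by branch and the median of all features (-0.25) as a dashed line. Creld2, Asns, Trib3 and Xbp1 lie in the upper shoulder between 0.41 and 0.68, and Dnajb9, Calr and Ddit3 near the bulk of the features.

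The ER stress response element, to which ATF6 binds together with the factor NF-Y, is the best known element of this branch, and it is shown here because the genes that carry it had different ratios. The upstream windows are those of RefSeq (rat build GRCr8), where all 7 genes matched by gene ID, and the 250 bases before each annotated start were searched on both strands. The element as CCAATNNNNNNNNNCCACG was found before Creld2, Xbp1 and Calr, and before 0.0657% of 33469 windows of that length. The sites are written in the direction that reads from CCAAT to CCACG, with the matched element in capitals and 5 bases on each side in lower case.
Creld2, chr7:121789234-121789262, minus strand: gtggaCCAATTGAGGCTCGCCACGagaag
Xbp1, chr14:84604553-84604581, plus strand: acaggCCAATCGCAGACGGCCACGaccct
Calr, chr19:40213130-40213158, minus strand: ctgggCCAATCAGGGTCGACCACGcgttg

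The matches lay 145 to 127 bases before the annotated start of Creld2, 65 to 47 before that of Xbp1 and 232 to 214 before that of Calr. These 3 genes had mean log2 ratios of 0.68, 0.41 and -0.15, so the letters of the element were shared by genes at both ends of the branch. Dnajb9 had no match in its window. 2 other elements of this response, ATTGGNCCACG (in 0.0418% of windows), which shares CCACG with the first, and TGACGTGG (in 0.52%), were found before none of the 7 genes. The whole upstream windows of Xbp1 and Calr are given to show the element in its place, with the element in capitals as it reads on the strand of the gene, where that of Calr is inverted.
Xbp1, chr14:84604373-84604622, plus strand: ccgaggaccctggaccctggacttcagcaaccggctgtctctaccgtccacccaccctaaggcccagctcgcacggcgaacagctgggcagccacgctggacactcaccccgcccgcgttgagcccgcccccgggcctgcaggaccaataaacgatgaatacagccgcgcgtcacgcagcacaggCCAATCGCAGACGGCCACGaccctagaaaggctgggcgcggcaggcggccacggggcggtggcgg
Calr, chr19:40213117-40213366, plus strand: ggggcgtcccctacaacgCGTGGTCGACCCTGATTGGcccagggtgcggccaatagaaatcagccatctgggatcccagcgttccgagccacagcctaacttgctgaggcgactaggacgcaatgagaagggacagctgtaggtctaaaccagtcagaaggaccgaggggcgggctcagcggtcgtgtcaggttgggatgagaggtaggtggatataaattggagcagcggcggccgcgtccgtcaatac

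**Figure D3:**
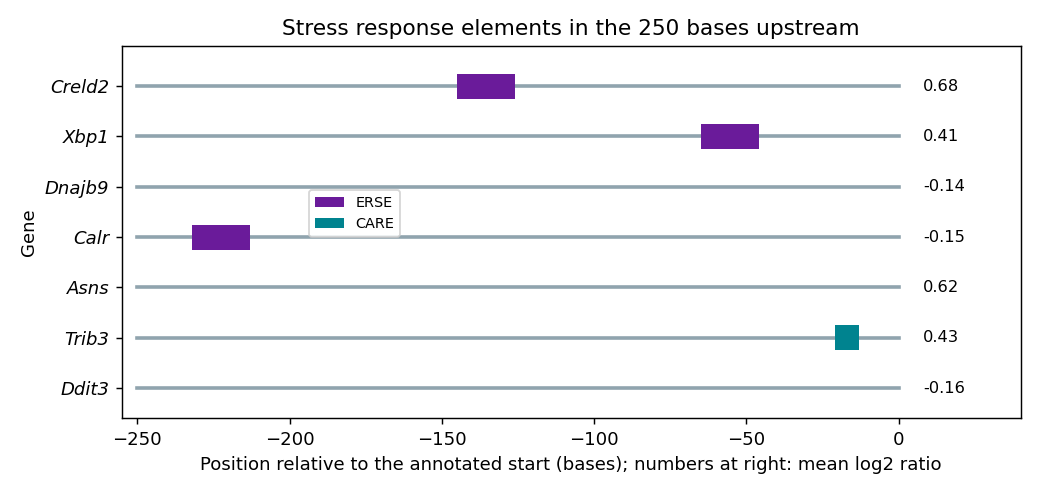
Upstream windows of the 7 genes (vertical axis) by position in bases relative to the annotated start (horizontal axis), with matches to the ER stress response element (ERSE) and to the C/EBP-ATF response element (CARE) as boxes and the mean log2 ratio at the right. The ERSE is found before Creld2 (0.68), Xbp1 (0.41) and Calr (-0.15), and the CARE before Trib3 (0.43).

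In the ATF4 branch, Asns, the asparagine synthetase and a standard target of the amino acid response, was the highest. Its log2 ratios were 0.40 and 0.38 on the Cy5 arrays and 0.91 and 0.78 on the Cy3 arrays, all above 0 and higher on the latter. The mean was 0.62 ± 0.27, or 1.53-fold, above 97.9% of all features. Within single arrays Asns stood above 90.4% to 98.1% of features. Without array 2 its mean was 0.58, just short of 1.5-fold, which left Creld2 as the one gene of the 7 past that limit.

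Trib3, a pseudokinase induced by ATF4 that binds the kinase AKT, had the widest spread of the 7 genes. Its log2 ratios were 0.10 and -0.18 on the Cy5 arrays and 0.90 and 0.90 on the Cy3 arrays, so the orientations did not overlap. The mean was 0.43 ± 0.56, or 1.35-fold, with orientation means of -0.04 and 0.90. Centring removed most of this spread, leaving values from 0.46 to 0.77 that were all above 0, with a mean of 0.59. The dye contrast of Trib3 (0.5 times the mean of the Cy5 arrays minus that of the Cy3 arrays) was -0.47. That was above 45.1% of all features, whose median was -0.40. Whether a dye effect of the Trib3 feature itself lies behind the difference was not tested.

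The C/EBP-ATF response element, searched as TGATGNAA on both strands, was found before Trib3 and before no other of the 7 genes, and before 3.40% of all windows. The match lay 21 to 14 bases before the annotated start of Trib3. It is shown first as it reads on the strand that holds TGATG, and then in the upstream window on the strand of the gene, where it reads inverted. In both the match is in capitals.
Trib3 site, chr3:161275542-161275559, plus strand: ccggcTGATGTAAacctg
Trib3 window, chr3:161275534-161275783, minus strand: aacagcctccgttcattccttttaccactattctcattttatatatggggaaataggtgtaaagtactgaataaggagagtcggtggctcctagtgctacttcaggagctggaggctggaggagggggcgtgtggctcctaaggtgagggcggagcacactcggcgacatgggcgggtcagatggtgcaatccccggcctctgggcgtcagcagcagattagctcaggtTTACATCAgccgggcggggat
Asns and Ddit3 had no match to these letters in their windows of 250 bases. Bases further upstream and sites with other letters were not searched.

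Ddit3, which encodes the transcription factor CHOP and is induced by ATF4 in lasting ER stress, was the lowest of the 7 genes in the mean. Its log2 ratios were 0.06 and 0.00 on the Cy5 arrays and -0.33 and -0.35 on the Cy3 arrays, so its sign followed the dye. The mean was -0.16 ± 0.21, or 1.11-fold lower, and 0.01 with centred arrays, so Ddit3 showed no direction that held across dyes or scaling. Its dye contrast, which is 0.5 times the mean of the Cy5 arrays minus that of the Cy3 arrays, was 0.18 and above that of 96.1% of all features.

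Set side by side, the branches overlapped over nearly their whole range. The XBP1 and ATF6 branch had a median of 0.14 (from -0.15 to 0.68) and the ATF4 branch a median of 0.43 (from -0.16 to 0.62), beside -0.25 over all features. On arrays 1 and 3 the branch medians were 0.13 and 0.09 for XBP1 and ATF6, and 0.10 and 0.00 for ATF4. On arrays 2 and 4 they were 0.15 and 0.23 for XBP1 and ATF6, and 0.90 and 0.78 for ATF4. The higher median of the ATF4 branch thus appeared on the Cy3 arrays and not on the Cy5 arrays. Of the 12 pairs made of 1 gene from each branch, the ATF4 gene had the higher mean in 6 and the XBP1 and ATF6 gene in 6. Only 5 of the 12 pairs kept their order on all 4 arrays, 3 of them with the ATF4 gene higher and 2 with the XBP1 and ATF6 gene higher.

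In the order of the means, 5 of the 6 pairs of neighbours did not keep their order on all 4 arrays. Creld2 exceeded Asns by 0.07 ± 0.07 on the log2 scale (higher on 3 of 4 arrays), Asns exceeded Trib3 by 0.19 ± 0.31 (3 of 4), and Trib3 exceeded Xbp1 by 0.02 ± 0.48 (2 of 4). The step from Xbp1 to Dnajb9 was the exception, with Xbp1 higher by 0.55 ± 0.04 and differences from 0.51 to 0.60 on the 4 arrays. This pair holds a transcription factor and one of its own targets, and their ratios differed by about the same amount in both dye orientations. Dnajb9, Calr and Ddit3 were within 0.02 of each other in the mean, and their order changed between arrays. Within the XBP1 and ATF6 branch, Creld2 exceeded Calr by 0.84 ± 0.31, and by 0.47 on the array where the difference was smallest.

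The genes were taken by symbol and not by dye contrast, though with earlier results of these data known. Values of the Cy5 and Cy3 arrays did not overlap for 6 of the 7 genes, all but Calr, as for 84.9% of all features. All 7 genes had a dye contrast above -0.5 (from -0.47 for Trib3 to 0.18 for Ddit3), as did 56.8% of all features, whose median dye contrast was -0.40. This limit was set with the data seen and lies just under the value of Trib3. Among the features with a dye contrast above -0.5, 20.9% were above 0 on all 4 arrays and 30.1% below, beside 3 and 2 of the 7 genes. With centred arrays, 4 of the 7 genes (Creld2, Asns, Trib3 and Xbp1) were above 0 on all 4 arrays, against 11.8% of all features, and none was below, against 11.0%. Creld2, Asns and Trib3 then also passed 1.5-fold on the higher side, against 6.04% of all features. Xbp1, with a centred mean of 0.577, fell just short of that limit (0.585 on the log2 scale). For the 7 genes, 0.5 times the difference between arrays of the same orientation was at most 0.14 on the Cy5 arrays (Trib3). It was at most 0.065 on the Cy3 arrays (Asns). The medians of its size over all features were 0.072 on the Cy5 arrays and 0.056 on the Cy3 arrays.

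**Figure D4:**
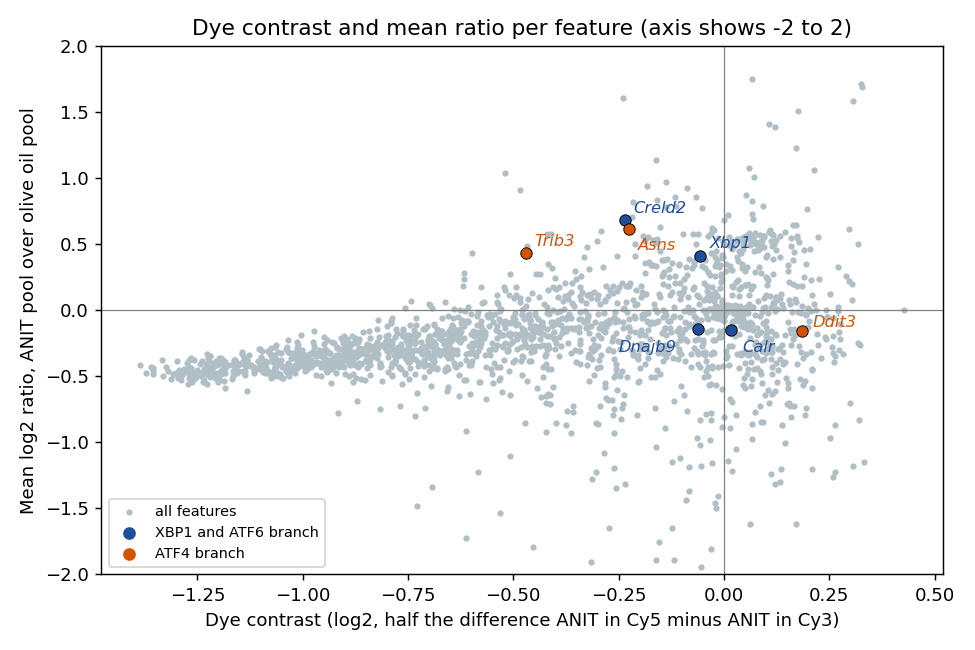
Mean log2 ratio (vertical axis) against dye contrast in log2 units (horizontal axis) for all features in grey and the 7 genes coloured by branch; features beyond ±2 in the mean are not shown. The 7 genes lie to the right of -0.5 on the dye axis, with Trib3 at -0.47, Creld2 at -0.24, Asns at -0.22 and Ddit3 at 0.18.

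The wider pathways were measured in part. Of 29 listed ER folding genes, 6 were on the array, and their median was 0.06 over 6 features. Of these features, 2 were above 0 on all 4 arrays, against 11.9% of all features, and 2 below 0, against 17.6%. The 2 below 0 were Dnajb9 and Calr, already counted above. Without these and Creld2, 1 feature of the list was above 0 on all 4 arrays and none was below. Besides Creld2, Pdia4, a protein disulfide isomerase of the ER, was above 0 on all 4 arrays (0.03, 0.29, 0.07 and 0.39, mean 0.20 ± 0.17). Centred, Pdia4 was just below 0 on array 2 (-0.02). The other disulfide isomerases had no common sign, with P4hb at 0.10 ± 0.16 and Pdia3 at 0.01 ± 0.17. Calr and Pdia3, which work together on glycoproteins, thus both had means within 0.2 of 0.

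Of 17 listed sensors and regulators of the unfolded protein response, 4 were measured on 5 features, with a median of 0.05. Eif2s1, which encodes the eIF2α subunit that PERK and GCN2 phosphorylate, had a pair of features that disagreed. One was above 0 on all arrays (0.38, 0.67, 0.35 and 0.73; mean 0.53 ± 0.20), and the other followed the dye (-1.85, 0.81, -1.46 and 0.62; mean -0.47 ± 1.38). Eif2ak1, another kinase of eIF2α, stood at 0.05 ± 0.19. Of the 30 listed genes of protein import and export, 2 were measured. Ssr4, a subunit of the translocon-associated complex, stood at 0.18 ± 0.21. Sar1b, a GTPase of vesicle export, stood at -0.19 ± 0.17 and was below 0 on all 4 arrays as deposited. Centred, Sar1b was above 0 on the Cy5 arrays (0.63 and 0.50) and below 0 on the Cy3 arrays (-0.75 and -0.49). None of the 16 listed genes of ER-associated degradation and none of the 20 aminoacyl-tRNA synthetases was found under its symbol.

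The ATF4 and amino acid response list held 36 genes, of which 11 were measured on 23 features, with a median of -0.11. Of these features 3 were above 0 and 1 below 0 on all 4 arrays, and 10 had a dye contrast of -0.5 or below, as had 43.2% of all features. The shares over all features, 11.9% above 0 and 17.6% below 0 on all arrays, put the count above 0 near the background. Beside Asns, the features above 0 on all 4 arrays were 1 of Slc38a2, a carrier that takes up neutral amino acids and is induced when they run short, and 1 of Gadd45a, a growth arrest gene. The Slc38a2 feature had 0.69, 0.68, 0.67 and 0.68, nearly the same deposited value on every array (mean 0.68, SD 0.0062), close to the mean of Asns. Centred, its values split by dye, at 1.36 and 1.32 on the Cy5 arrays and 0.37 and 0.33 on the Cy3 arrays. The other features of Slc38a2 had means of -0.09, -0.21, -0.31 and -0.54, and those at -0.31 and -0.54 followed the dye. The feature at -0.21 (-0.12, -0.35, -0.10 and -0.29) was the 1 feature of the list below 0 on all 4 arrays as deposited. Centred, it was above 0 on the Cy5 arrays (0.55 and 0.55) and below 0 on the Cy3 arrays (-0.66 and -0.63). No direction is drawn for it. Gadd45a had means of 0.38 ± 0.20 and -0.43 ± 1.24, the latter also following the dye. Centred, the Gadd45a feature at 0.38 was below 0 on the Cy3 arrays (-0.10 and -0.13). The amino acid carriers Slc7a1, Slc7a5 and Slc1a5 had feature means between -0.34 and 0.15, none with a common sign, and Phgdh, which starts serine synthesis, stood at 0.13 and -0.05.

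**Figure D5:**
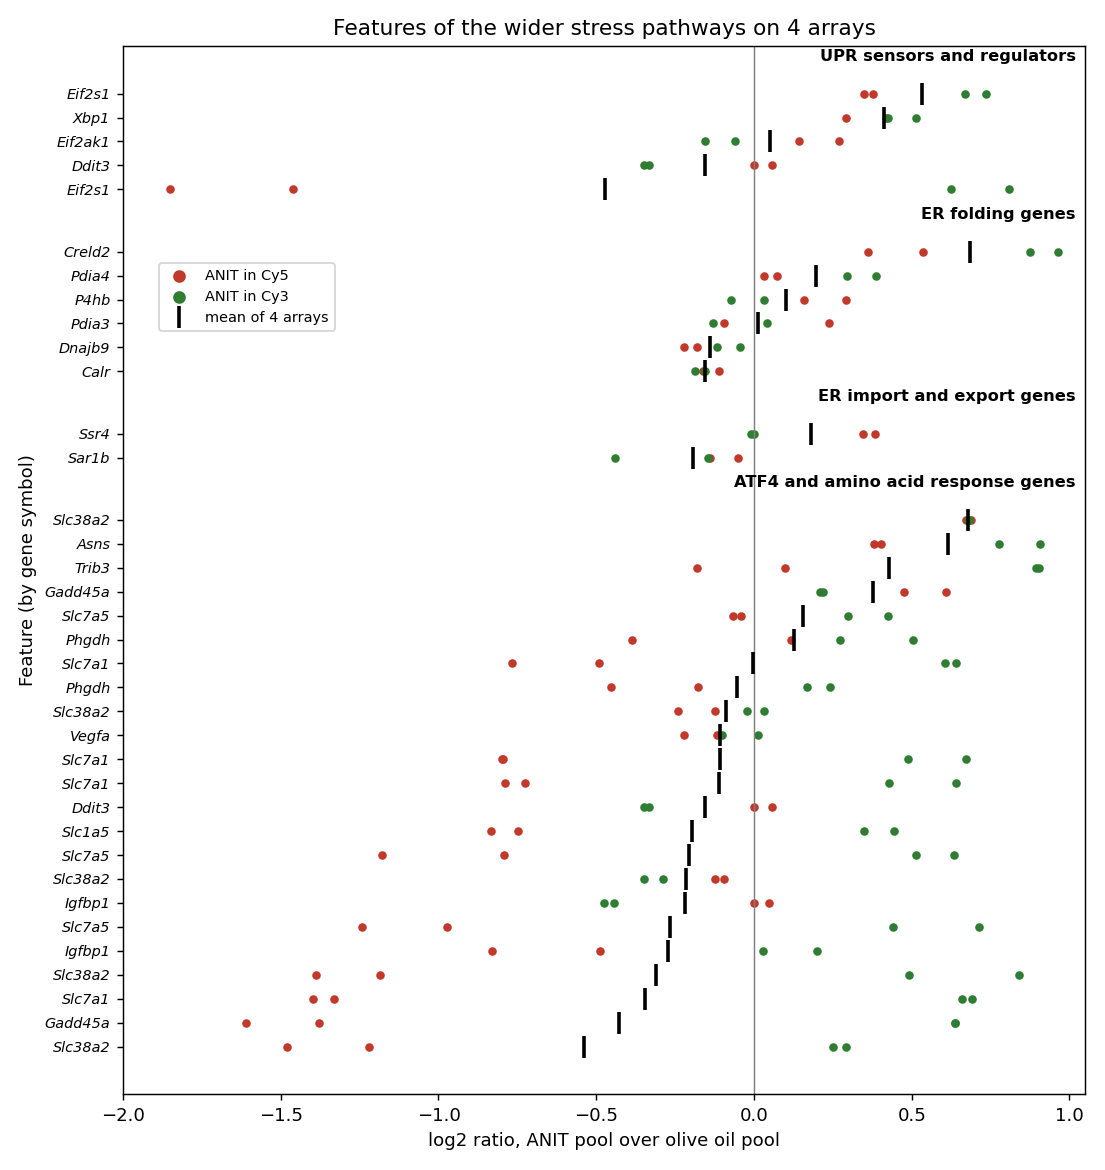
Log2 ratio of the ANIT pool over the olive oil pool (horizontal axis) for each feature of the 4 pathway lists with measured genes (vertical axis, by gene), with 1 point per array coloured by the dye of the ANIT pool and a bar for the mean. Apart from Creld2 the ER folding genes lie between -0.22 and 0.39 on all arrays, whereas many features of amino acid carriers lie far below 0 on the Cy5 arrays and above 0 on the Cy3 arrays.

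The named features nearest to the 3 genes of largest mean were listed by Euclidean distance over the 4 arrays, as a description of values from the same hybridisations. Nearest to Creld2 were Fabp5 (distance 0.21), Hnrnpa1 (0.21) and Rpl4 (0.29). Nearest to Asns were Pim3 (0.17), Rpl4 (0.20) and Hnrnpa1 (0.20), so that Rpl4, a ribosomal protein, and Hnrnpa1, an RNA-binding protein, were near to both. Nearest to Trib3 were Eps8l2 (0.12), Nucb1 (0.24) and Pgs1 (0.28).

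Markers of other liver cells were sparse. On the array were 5 of 10 listed hepatocyte markers, 2 of 8 of cholangiocytes, 3 of 7 of endothelial cells, 2 of 9 of stellate cells and fibroblasts, 1 of 7 of neutrophils, 1 of 13 of lymphocytes and plasma cells, and none of 7 of macrophages. List medians ran from -0.44 (stellate cells and fibroblasts) to -0.13 (neutrophils), apart from the single lymphocyte gene Il2rb at -0.84 ± 0.12. The hepatocyte list had a median of -0.14 and held 7 features of Cyp2e1, a cytochrome P450. Of these features, 2 were below 0 on all 4 arrays and past 2-fold (-1.24 ± 0.14 and -1.05 ± 0.14), against 3.05% of all features. Both lay further from 0 than any of the 7 genes. The other Cyp2e1 features had means from -0.46 to -0.10. No other feature of the list kept 1 sign on all 4 arrays, and the highest mean in the list was 0.07. The part of these markers in the ratios of the 7 genes was not tested.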

How the data were processed

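The authors deposited 1 log ratio of the 2 channels per feature and array, read here as log2. How the scans were corrected and normalized, and the base and direction of the logarithm, are not stated in any source at hand. Values were used as deposited. The mean over the 4 arrays balances the dye orientations. To be called, a feature needed a mean that differed at least 2-fold (or 1.5-fold) and no array with the opposite sign. The dye contrast is 0.5 times the mean of the Cy5 arrays minus that of the Cy3 arrays, and its limit of -0.5 was set with the data seen.

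Features were named through the platform annotation, which is old, by exact symbol. The members and gene lists were chosen with earlier results of these data known. Named genes were the 7 members, the genes of short lists, the 4 genes of largest absolute mean in longer ones, and the 3 nearest features of the 3 members with the largest mean. Slc7a1, Slc7a5, Slc1a5, Phgdh, Il2rb and Cyp2e1 were named after their values were seen. Depth has no meaning for these arrays, and their number limits the precision. Motifs were exact matches in RefSeq windows.

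Alternatives were centred arrays, 1 dye orientation alone, leaving out an array while keeping both orientations at equal weight, natural logarithms, 1.5-fold, and gene means. The size rule was tested on simulated data in which dye effects cancelled in the mean by construction. That test cannot show how the rule handles dye effects that do not cancel. The scripts ran in Python 3.11.15 with pandas 2.3.3, numpy 2.4.6 and matplotlib 3.10.9.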

Additional observations from a re-analysis of the deposited data

How the results depend on the processing

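Each value is already a ratio within an array that held both pools. No analysis by animal was possible because the RNA of each condition was mixed into 1 pool. The number of the 7 genes past the 2-fold rule was 0 under every alternative run except the 1.5-fold limit, which gave 2. With centred arrays no gene was below 0 on all arrays, the median of the XBP1 and ATF6 branch was 0.30, that of the ER folding genes 0.22 and that of the sensors and regulators 0.21. With the Cy3 arrays only, the median of the sensors and regulators was 0.47 and that of the ATF4 and amino acid response genes 0.40; with the Cy5 arrays only these were 0.21 and -0.31, the latter of opposite sign. The centred medians moved by the 0.17 that centring adds to every mean. What lies behind the moves with 1 dye orientation alone was not tested. Without 1 array, the difference of branch medians (ATF4 minus XBP1 and ATF6) lay between 0.24 and 0.34, Creld2 between 0.64 and 0.73, and Trib3 between 0.36 and 0.50. Read as natural logarithms, the mean of Creld2 was 0.99 and that of Asns 0.89 on the log2 scale, both still short of 2-fold, and Xbp1 reached 1.51-fold, so that 3 and not 2 of the 7 genes were higher by the 1.5-fold rule.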
